A study of Mus musculus with 12 samples.

Results

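Cdk19-knockout RasG12V cells were compared with untransformed cells of the same hepatic progenitor line. The comparison took the 3 libraries titled Cdk19 KO RasG12V and the 3 titled WT, 6 of the 12 libraries of the series, and used the strand-specific gene counts of each. All 12 libraries came from BMEL cells, a bipotential mouse embryonic liver line that can yield hepatocytes and bile duct cells. The line was isolated from a mouse with floxed Cdk8 alleles (CDK8 F/F), so every group descends from cells that carry them. The WT group is labelled wild type with no transformation, and the Cdk19 KO RasG12V group is labelled Cdk19 -/- with H-RasG12V, a constitutively active form of the GTPase H-Ras. The other groups were WT RasG12V (wild type with H-RasG12V) and Cdk8 KO RasG12V (Cdk8 -/- with H-RasG12V), of 3 libraries each. All cells were grown on collagen in medium with serum, insulin, IGF2 and EGF and were collected while growing exponentially, so growth factor was present in both groups. No Cdk19 KO library without RasG12V was analysed here, so loss of Cdk19 and the presence of H-RasG12V differ together between the groups and cannot be told apart in this comparison. The labels do not say how many clones a group holds or whether its libraries came from separate cultures, so p-values measure the spread between these libraries, which may be technical.

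H-Ras passes signals from growth factor receptors through the RAF, MEK and ERK kinases to transcription factors of the ETS and AP-1 families, and the G12V change keeps it bound to GTP. ERK induces genes that feed back on the pathway, such as the Sprouty proteins and the dual-specificity phosphatases, and AP-1 binds promoters of matrix metalloproteinases. Cdk19 and its paralogue Cdk8 are kinases that join cyclin C, Med12 and Med13 in a detachable module of Mediator, which links transcription factors to RNA polymerase II. Hepatic progenitors are held in their lineage by factors such as Hnf4a and Hhex, and differentiate into hepatocytes, which secrete plasma proteins, or into bile duct cells.

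The 6 libraries held 28202944 to 32594810 gene counts, and levels are CPM, counts relative to library size scaled by the TMM method. The floor used here, 3 counts in a library, is worth 0.0920 to 0.106 CPM. WT replicate 3 stood apart from the other WT libraries: 6.15% and 5.56% of 14283 genes were at least 2-fold from WT replicates 1 and 2, which differed in 2.29%, and the Cdk19 KO pairs in 2.42% to 2.70%. The first principal component of the 6 libraries, with 76.3% of the variance, separated the groups, with WT replicate 3 at -36.2 against -57.5 and -54 for the other WT libraries. List counts below are therefore also given without WT replicate 3. Of the markers that the BMEL label calls for, Krt8, Krt18, Krt19, Hnf4a and Foxa2 were present in both groups. Hnf4a, the main hepatic nuclear receptor, was at 445, 405 and 386 CPM in WT and 302, 279 and 328 CPM in Cdk19 KO RasG12V. Epcam, an epithelial adhesion molecule of progenitors, was at or below 0.106 CPM in each of the 6 libraries, and Dlk1, a hepatoblast marker, had 0 counts in all of them. Markers of other cell types were low, except macrophage and mesothelial ones. The 13 stellate and fibroblast markers summed to 0.745 to 1.45 CPM in WT and 1.83 to 2.48 CPM in Cdk19 KO RasG12V, with Hgf, Col3a1 and Lum at 0 counts in all 6 libraries, and Pdgfra, the tested member, rose. The 10 endothelial markers summed to 0.284 to 0.557 and 0.346 to 0.703 CPM, and the 8 erythroid markers to 0.217 to 0.447 and 0.353 to 0.657 CPM.

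Hras was the first check of the labels. Its level was 57.5, 51.7 and 40.7 CPM in the 3 WT libraries and 439, 402 and 425 CPM in the 3 Cdk19 KO RasG12V libraries, a log2 fold change of 3.08, SE 0.13, adjusted p = 1.94e-06 (edgeR quasi-likelihood test, Benjamini-Hochberg over 13739 genes). The SE is approximate and was taken from the F statistic. All Cdk19 KO RasG12V libraries lay far above all WT libraries, and the counts do not separate the introduced from the endogenous gene. Cdk19 was at 88.3, 83.4 and 91.7 CPM in WT and 51.2, 45.0 and 53.1 CPM in Cdk19 KO RasG12V (log2 fold change -0.82, SE 0.08, adjusted p = 0.000167). The groups did not overlap, but Cdk19 transcript stayed far above the floor in every knockout library, and counts over the whole gene do not test a deleted exon. Cdk19 was also below every WT library in WT RasG12V replicates 1 and 2 and in each Cdk8 KO RasG12V library, but not in WT RasG12V replicate 3. A level below WT is thus not particular to the knockout, and the direct difference from WT RasG12V is given below. Cdk8 was at 49.6, 45.7 and 43.8 CPM in WT and 52.7, 57.1 and 55.2 CPM in Cdk19 KO RasG12V (log2 fold change 0.25, SE 0.08, adjusted p = 0.049). The groups did not overlap, and this small rise passed the threshold only with all 6 libraries or without WT replicate 3: with any of the other 5 left out, the adjusted p lay between 0.0562 and 0.178. Against WT RasG12V, the log2 difference of Cdk8 was 0.014 (adjusted p = 0.976, edgeR quasi-likelihood test on 12 libraries).

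Across all genes, 3894 of 13739 tested passed an adjusted p of 0.05 (28.3%): 1833 rose (13.3%) and 2061 fell (15.0%) in Cdk19 KO RasG12V. By at least 1 on the log2 scale, 600 rose (4.37%) and 712 fell (5.18%). The 3 and 3 libraries were fully separated in 6094 genes (44.4%), 2983 of them higher (21.7%) and 3111 lower (22.6%) in Cdk19 KO RasG12V. Without WT replicate 3, 6120 of 14027 genes were called (43.6%), 3080 up (22.0%) and 3040 down (21.7%), and 3857 of the 3894 genes were among them in the same direction. With any other library left out the counts fell, to as few as 1147 rises and 1335 falls without Cdk19 KO replicate 2 and 1159 and 1343 without Cdk19 KO replicate 1. These shares of all genes, with all libraries and without WT replicate 3, are the base for every list count below. A level in these bulk libraries does not tell fewer cells that express a gene from less RNA per cell.

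**Figure D1:**
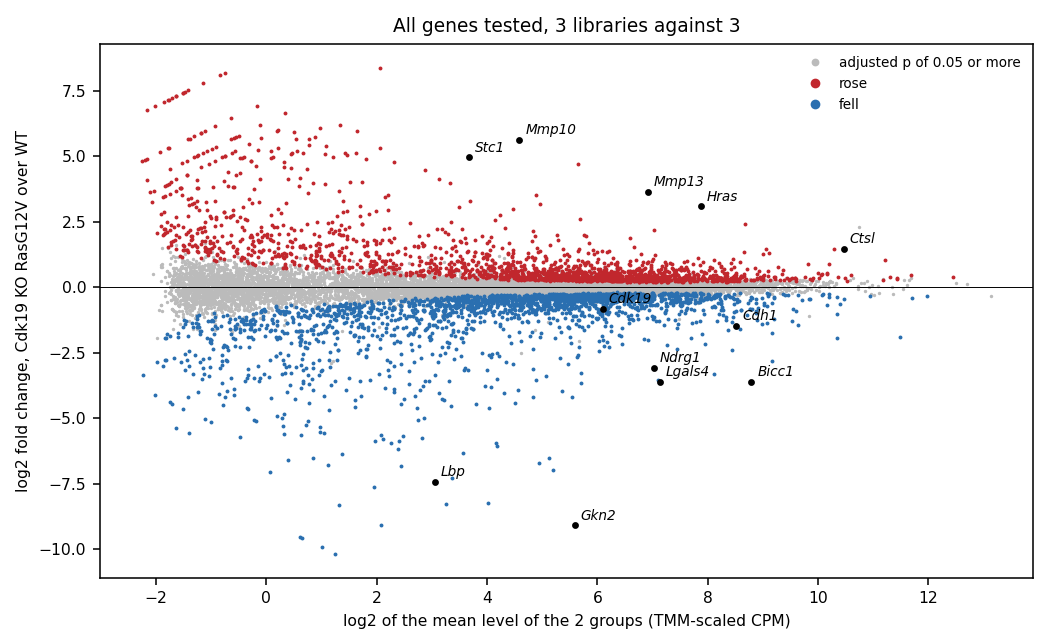
Each of the 13739 genes tested, by the log2 mean level of the WT and Cdk19 KO RasG12V groups (TMM-scaled CPM, horizontal axis) and the log2 fold change of Cdk19 KO RasG12V over WT (vertical axis), with genes that rose in red, genes that fell in blue and the others in grey. The 1833 rises and 2061 falls spread over the whole range of levels, and the falls reach further than the rises among genes of moderate level such as Gkn2.

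The interstitial collagenase Mmp13 and the stromelysins Mmp10 and Mmp3, proteases that cut extracellular matrix, lie near each other on chromosome 9 and rose together, so their promoters are shown first. Their genes lie at chr9:7272514-7283331, chr9:7445822-7455975 and chr9:7502352-7510240 on the plus strand (GENCODE M21, GRCm38). The windows run from 250 bases before to 50 bases after the RefSeq gene start (GRCm38.p6, plus strand), 5′ to 3′, and capitals mark matches to the AP-1 motif TGANTCA, which reads the same on both strands.
Mmp13, chr9:7272264-7272563: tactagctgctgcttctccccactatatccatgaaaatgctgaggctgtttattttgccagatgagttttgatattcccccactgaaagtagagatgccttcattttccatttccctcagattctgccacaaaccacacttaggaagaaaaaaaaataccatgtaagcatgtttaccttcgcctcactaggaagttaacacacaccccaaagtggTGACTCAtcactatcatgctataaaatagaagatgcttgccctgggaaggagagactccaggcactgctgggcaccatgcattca
Mmp3, chr9:7445572-7445871: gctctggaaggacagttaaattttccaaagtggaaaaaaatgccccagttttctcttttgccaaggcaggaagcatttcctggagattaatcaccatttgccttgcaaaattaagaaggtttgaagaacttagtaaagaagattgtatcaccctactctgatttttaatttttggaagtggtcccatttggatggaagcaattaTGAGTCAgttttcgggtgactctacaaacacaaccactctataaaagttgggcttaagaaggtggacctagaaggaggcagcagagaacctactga
Mmp10, chr9:7502092-7502391: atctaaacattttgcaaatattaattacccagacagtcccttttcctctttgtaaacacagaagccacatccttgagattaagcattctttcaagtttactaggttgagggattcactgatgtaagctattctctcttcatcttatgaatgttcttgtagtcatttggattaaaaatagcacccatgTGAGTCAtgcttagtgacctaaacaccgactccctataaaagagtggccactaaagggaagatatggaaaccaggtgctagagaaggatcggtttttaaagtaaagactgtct
Each window held 1 match, which began 35 bases before the RefSeq start in Mmp13, 46 in Mmp3 and 63 in Mmp10. The RefSeq start of Mmp10 lies slightly upstream of the GENCODE start given above. The motif occurred in 7.81% of 32851 promoter windows of 300 bases. Among the genes named here that have a promoter in the table, 7 of 64 risen genes (10.9%) and 4 of 60 fallen genes (6.67%) held it in at least 1 of their windows. Mmp10 and Mmp13 were chosen for display before matches were searched, and Mmp3 was added after its match was seen. The TATA and CCAAT boxes were also searched at first and are not reported. A match is a description of the letters and does not show binding.

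The fourth window belongs to a gene that fell. Alb, which encodes albumin, the main plasma protein made by hepatocytes, lies at chr5:90460897-90476602 on the plus strand. Its window is shown because Alb was detected in every WT library and in no Cdk19 KO RasG12V library, and capitals mark GTTAAT, the core of the motif of the hepatic factor HNF1, searched on both strands.
Alb, chr5:90460620-90460919: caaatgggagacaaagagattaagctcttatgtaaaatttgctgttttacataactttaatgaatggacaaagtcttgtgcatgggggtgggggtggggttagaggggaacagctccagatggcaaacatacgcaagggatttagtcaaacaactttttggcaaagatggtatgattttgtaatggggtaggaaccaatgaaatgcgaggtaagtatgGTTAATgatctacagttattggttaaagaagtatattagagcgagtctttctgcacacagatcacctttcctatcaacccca
The core began 32 bases before the RefSeq start, which lies upstream of the GENCODE start given above. It occurred in 7.10% of all windows, in 15 of 60 fallen genes named here (25%) and in 4 of 64 risen ones (6.25%). The fallen genes include lists chosen for liver and gut functions, though of the 15 only Alb and Vsig1 are on those lists. A gene was counted if any of its windows held a match, and the shares are a description with no test.

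The 12 largest rises among protein-coding genes of at least 5 CPM were Lilr4b, Mmp10, Plxna4, Usp17le, Zfp352, Stc1, Nlrc5, Arap3, Dynap, Csn3, Acan and Slc35f1. Mmp10 was at 0.781, 1.24 and 0.865 CPM in WT and 34.3, 39.8 and 67.1 CPM in Cdk19 KO RasG12V (log2 fold change 5.60, SE 0.32, adjusted p = 1.11e-05), and Cdk19 KO replicate 3 was the highest. Arap3, a GTPase-activating protein for small GTPases, was at 2.98, 2.32 and 5.67 and 91.5, 88.2 and 110.0 CPM (4.71, SE 0.29, adjusted p = 2.29e-05). Stc1, which encodes the secreted glycoprotein stanniocalcin-1, was at 0.994, 1.08 and 0.328 and 24.7, 18.6 and 30.6 CPM (4.95, SE 0.34, adjusted p = 2.28e-05). In all 3 genes the gap between the groups was wider than the range within either group. Separated groups were a condition for the largest rises and falls, and 44.4% of all genes met it. The separation is therefore a description and no further support. Plxna4, a semaphorin receptor, was at 0.391, 0 and 0.239 and 8.36, 6.64 and 9.47 CPM (5.30, SE 0.51, adjusted p = 0.000121), and its log2 fold change was 6.02 without WT replicate 1 and 4.70 without WT replicate 2. Lilr4b, an inhibitory immunoglobulin-like receptor of myeloid cells, had 2 counts in all WT libraries together, so its ratio of CPM, 393, has a 95% counting interval of 108 to 3248, and its log2 fold change was 8.35 with all libraries and 10.94 without WT replicate 3. The milk protein gene Csn3 was at 0.923, 0.742 and 1.16 and 14.9, 17.1 and 17.9 CPM (4.13, SE 0.18, adjusted p = 2.6e-06), and Acan, which encodes the cartilage proteoglycan aggrecan, at 0.426, 0.557 and 0.179 and 6.88, 4.98 and 7.06 CPM (4.02, SE 0.34, adjusted p = 5.17e-05). The other leading rises had log2 fold changes between 4.01 (Slc35f1, a solute carrier family member) and 5.10 (Usp17le, a deubiquitinase of a family of similar copies whose reads may be split between them).

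The 12 largest falls included Gkn2, Tff3, Ttr, Pdzk1ip1, Lbp, Tm4sf20, Cyp2c65, Gkn1, Clca1, Sptssb and ccdc198. Lbp, which encodes the lipopolysaccharide-binding plasma protein made by hepatocytes, was at 20.6, 19.8 and 9.51 CPM in WT and 0.0705, 0.0691 and 0.134 CPM in Cdk19 KO RasG12V (log2 fold change -7.44, SE 0.46, adjusted p = 1.27e-05). Ttr, the thyroxine and retinol carrier transthyretin, was at 43.6, 44.6 and 9.10 and 0.0705, 0.104 and 0.134 CPM (-8.24, SE 0.98, adjusted p = 0.00153). Each Cdk19 KO RasG12V value of these genes was near or below the floor. WT replicate 3 was the lowest WT library in each of the falls named here. It lay above every Cdk19 KO RasG12V library, which the choice of these genes required. The gastric mucosal protein Gkn2 was at 144, 139 and 4.68 CPM in WT and 0.176, 0.242 and 0.100 CPM in Cdk19 KO RasG12V (-9.09, SE 1.86, adjusted p = 0.0173), so that WT replicate 3 lay about as far from the other WT libraries as from the knockout. The adjusted p of Gkn2 rose to between 0.053 and 0.0705 without WT replicate 1, WT replicate 2, Cdk19 KO replicate 1 or Cdk19 KO replicate 2, and was 1.22e-18 without WT replicate 3. Gkn1, another gastrokine, and Clca1, a secreted regulator of chloride channels in mucous cells, lost the call without WT replicate 2, Cdk19 KO replicate 1 or Cdk19 KO replicate 2 (adjusted p 0.052 to 0.0648). Tff3, a trefoil peptide of mucus, had 1 count in the 3 knockout libraries, a ratio of CPM of 706 with a 95% counting interval of 126 to 27900. It lost the call without any 1 of the knockout libraries (adjusted p 0.0525 to 0.0604). Pdzk1ip1 had 3 counts in the knockout (ratio 217, counting interval 74.0 to 1056). The log2 fold changes of Pdzk1ip1 (-8.50), Tm4sf20 (-8.14) and ccdc198 (-7.07) without Cdk19 KO replicate 1, were further from 0, as was that of Tff3 without Cdk19 KO replicate 3 (-10.99).

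**Figure D2:**
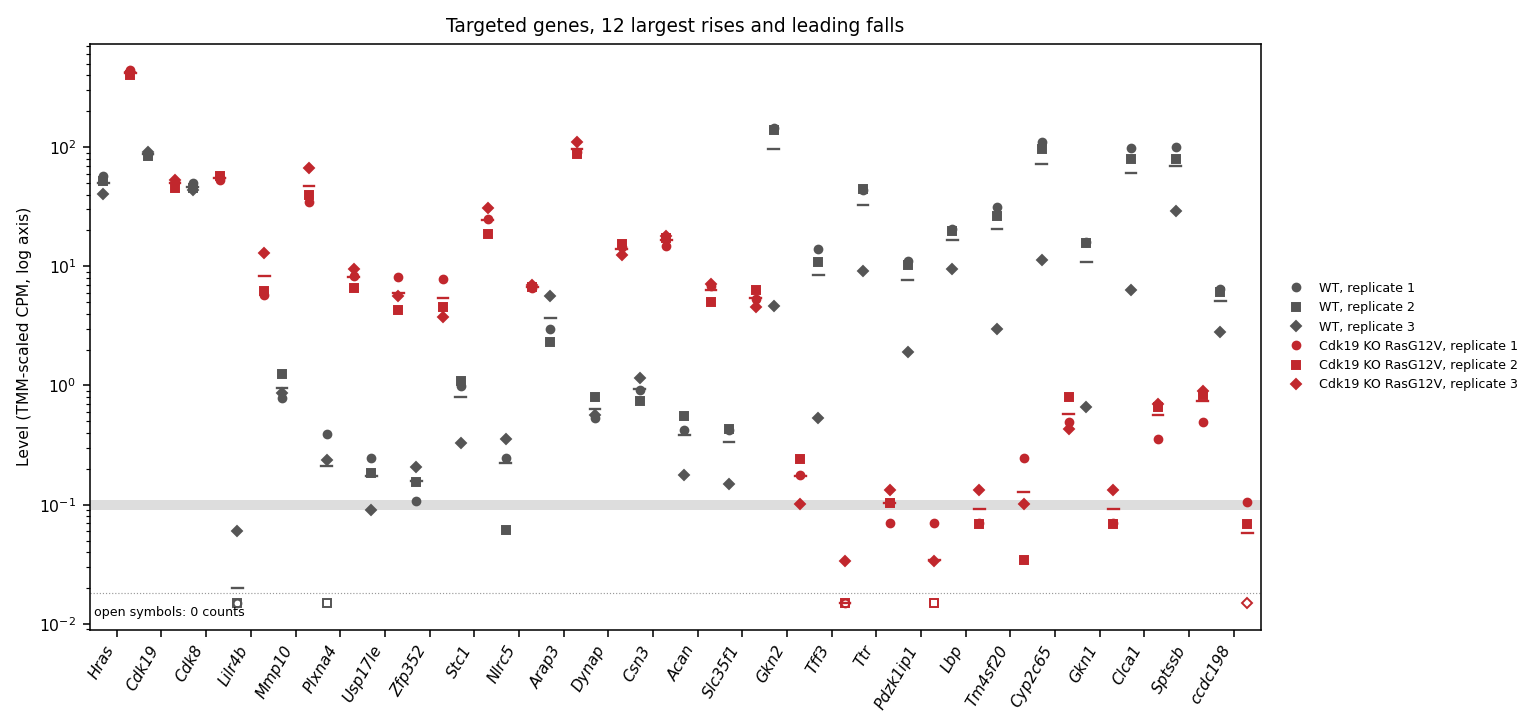
Level of Hras, Cdk19, Cdk8 and the genes with the 12 largest rises and the leading falls named in the text (TMM-scaled CPM, log axis) in each of the 3 WT (grey) and 3 Cdk19 KO RasG12V (red) libraries, with symbols by replicate and bars at the group means. The grey band is the floor of 3 counts, 0.0920 to 0.106 CPM, open symbols are libraries with 0 counts, and WT replicate 3 (grey diamonds) is the lowest WT library in each of the falls shown, for instance at 4.68 CPM of Gkn2.

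Genes induced or fed back by ERK were mostly higher in Cdk19 KO RasG12V. Of 21 tested, 14 rose and 1 fell, with a median log2 fold change of 0.60, beside -0.0032 over all genes and a share of rises of 13.3%. Dusp5, a nuclear ERK phosphatase, was at 39.9, 43.8 and 29.4 CPM in WT and 91.4, 91.8 and 109 CPM in Cdk19 KO RasG12V (log2 fold change 1.37, SE 0.15, adjusted p = 0.000197), and Spry2, a Sprouty inhibitor of receptor signalling, at 48.9, 40.4 and 41.4 and 84.4, 77.1 and 91.5 CPM (0.95, SE 0.10, adjusted p = 0.000189). The ETS factor Etv5 was at 10.7, 11.5 and 11.3 and 18.9, 20.5 and 22.2 CPM (0.88, SE 0.10, adjusted p = 0.000362), and the survival gene Ier3 at 62.4, 72.2 and 67.8 and 113, 126 and 131 CPM (0.87, SE 0.09, adjusted p = 0.000138). None of these 4, the members of smallest adjusted p, overlapped between groups, as was so for 44.4% of all genes. Members named from the lists below were chosen in the same way, so their separation is a description and no further support. The chromatin protein gene Hmga2 (1.47), Spred3 (1.33), the EGFR inhibitor Errfi1 (0.95), Etv4 (0.93), Dusp6 (0.62) and the AP-1 subunit Fosl1 (0.59) also rose. Dusp4 (0.62) and Spry4 (0.60) were as high in log2 fold change without passing the test. Spry1 fell (-0.77), but not without Cdk19 KO replicate 1 or 2. The list had 16 rises and 2 falls without WT replicate 3, and 11 rises without Cdk19 KO replicate 1 or without Cdk19 KO replicate 2.

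Of 19 AP-1 and immediate early genes tested, 8 rose and 3 fell (median log2 fold change 0.24), the same numbers as without WT replicate 3. The AP-1 subunit Fosb was at 0.852, 0.928 and 0.447 CPM in WT and 7.44, 8.43 and 8.50 CPM in Cdk19 KO RasG12V (3.45, SE 0.25, adjusted p = 2.64e-05). Klf2, a zinc-finger factor known as a MEK5 and ERK5 target, was at 0.426, 0.928 and 0.835 and 7.30, 7.81 and 10.5 CPM (3.53, SE 0.28, adjusted p = 4.14e-05), and Fosl2 at 83.0, 77.2 and 71.2 and 147, 158 and 143 CPM (0.95, SE 0.08, adjusted p = 5.54e-05). All 3 were higher in every Cdk19 KO RasG12V library. The immediate early factors Egr1 (1.29) and Egr3 (1.82) and the nuclear receptor Nr4a1 (0.87) rose, as did Egr2 (1.59), though not without Cdk19 KO replicate 2 or 3. In the opposite direction, the epithelial factor Klf4 was at 65.7, 63.8 and 46.1 and 20.5, 19.1 and 22.3 CPM (-1.50, SE 0.14, adjusted p = 0.000105), Fos fell by 1.44 on the log2 scale, and Jun (0.24) and Junb (-0.59) did not pass the test.

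Among Ras genes and effectors, 5 of 25 rose and 3 fell, near the 13.3% and 15.0% of all genes (6 and 6 without WT replicate 3, beside 22.0% and 21.7%). Besides Hras, the rises were Rasgrp3, a guanine nucleotide exchange factor for Ras, at 2.20, 2.01 and 1.79 CPM in WT and 6.24, 6.84 and 6.02 CPM in Cdk19 KO RasG12V (1.67, SE 0.16, adjusted p = 0.000133), Rgl1, an exchange factor for Ral (0.74), Rasa1, a Ras GTPase-activating protein (0.47), and Nras (0.35). Nras kept its call with all libraries or without WT replicate 3, and lost it with any other library left out. Mras (-1.11) and the scaffold Ksr1 (-0.70) were among the falls. Braf (0.03) and Map2k1 (0.20) did not pass the test. Of 10 EGFR ligands and receptors, 4 fell and 1 rose (4 and 2 without WT replicate 3). The receptor gene Erbb3 was at 10.2, 9.77 and 9.45 and 3.17, 2.35 and 2.91 CPM (-1.80, SE 0.15, adjusted p = 5.78e-05), Egfr at 134, 135 and 154 and 104, 102 and 104 CPM (-0.45, SE 0.07, adjusted p = 0.00231), and the ligand gene Nrg1 at 94.9, 94.8 and 91.8 and 57.2, 58.8 and 52.9 CPM (-0.74, SE 0.07, adjusted p = 0.000116). Erbb2 (-0.41) lost the call without Cdk19 KO replicate 2 (adjusted p = 0.0599). The rise was that of the ligand Hbegf (0.45), which was not called without Cdk19 KO replicate 1, 2 or 3. Areg (0.28), Ereg (0.14) and Tgfa (0.25) did not pass the test.

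Matrix proteases and their inhibitors moved in both directions. Of 19 tested, 7 rose and 4 fell (8 and 5 without WT replicate 3), with a median log2 fold change of 0.013. Mmp13 was at 18.2, 17.8 and 17.6 CPM in WT and 192, 187 and 293 CPM in Cdk19 KO RasG12V (3.65, SE 0.18, adjusted p = 3.97e-06), and Mmp3 at 0.106, 0.247 and 0.119 and 2.86, 2.07 and 3.78 CPM (4.16, SE 0.39, adjusted p = 0.000101). The lysosomal protease gene Ctsl was at 699.5, 832 and 731 and 2109, 2107 and 1979 CPM (1.45, SE 0.09, adjusted p = 1.39e-05). For these genes, as for Mmp10, the groups were far apart relative to their own spread. Serpinb2, an inhibitor of urokinase (3.99), Plat, the tissue plasminogen activator (1.13), and Ctsb (0.41) rose. Mmp19 (-3.93; -4.74 without Cdk19 KO replicate 3), Mmp15 (-1.15) and the inhibitor Timp2 (-0.68) fell, and Adamts1 (-3.33) fell only with all 6 libraries or without WT replicate 3. Mmp14 (-0.08), a membrane-bound protease, and Plau (0.01), urokinase, did not pass the test.

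Of 21 collagens, laminins and matrix glycoproteins, 7 rose and 6 fell (7 and 9 without WT replicate 3). Lamb3, a chain of the epithelial laminin-332, was at 31.6, 30.8 and 34.2 CPM in WT and 5.04, 5.01 and 5.55 CPM in Cdk19 KO RasG12V (-2.63, SE 0.10, adjusted p = 1.94e-06), while Lamb1, a chain of other laminins, was at 162, 167 and 214 and 362, 353 and 397 CPM (1.04, SE 0.11, adjusted p = 0.000236). The basement membrane collagen Col4a1 was at 158, 147 and 148 and 241, 228 and 260.5 CPM (0.69, SE 0.07, adjusted p = 0.000221), and Tnc, the matrix protein tenascin-C, at 0.284, 0.216 and 0.0895 and 2.79, 2.59 and 3.08 CPM (3.84, SE 0.34, adjusted p = 6.79e-05). No library of either group crossed into the other in these 4 genes, chosen by adjusted p, as was so for 44.4% of all genes. Col4a2 (0.64), Col5a1 (1.56), Thbs1 (1.02) and Spp1, which encodes osteopontin (2.43; 3.15 without WT replicate 3), rose, and Sparc (-0.79), Col4a5 (-0.64) and Col12a1 (-3.47; -4.32 without Cdk19 KO replicate 1) fell. Fn1, fibronectin, had a log2 fold change of -0.24 and did not pass the test. Of 13 integrins, 6 rose and 6 fell (6 and 7 without WT replicate 3). Itga6, a laminin receptor chain, was at 231, 238 and 214 and 605, 554 and 573 CPM (1.34, SE 0.08, adjusted p = 8.66e-06) and Itga2, a collagen receptor chain, at 209, 204 and 200.2 and 397, 379 and 392 CPM (0.93, SE 0.06, adjusted p = 2.16e-05), and Itga3 (0.88), Itga5 (0.90), Itgav (0.41) and Itgb7 (1.63) rose too. Itga7, another laminin receptor chain, was at 136, 123 and 109 and 24.6, 24.3 and 26.9 CPM (-2.28, SE 0.10, adjusted p = 2.56e-06), and Itga1 (-1.23), Itgb4 (-1.04) and Itgb6 (-4.27) fell.

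Epithelial junction genes were lower in Cdk19 KO RasG12V: of 18 tested, 14 fell and 1 rose, with a median log2 fold change of -0.90 (15 and 1 without WT replicate 3). Cdh1, which encodes E-cadherin, was at 574, 543 and 506 CPM in WT and 196, 166 and 216 CPM in Cdk19 KO RasG12V (-1.49, SE 0.11, adjusted p = 2.29e-05). Crb3, a polarity protein of the apical membrane, was at 8.24, 7.70 and 8.41 and 1.73, 1.97 and 1.91 CPM (-2.12, SE 0.15, adjusted p = 2.31e-05), Dsp, the desmosomal protein desmoplakin, at 233, 247 and 236 and 133, 124 and 123 CPM (-0.91, SE 0.07, adjusted p = 2.64e-05), and Krt7, a bile duct keratin, at 526, 528 and 464 and 267, 266 and 286 CPM (-0.89, SE 0.08, adjusted p = 8.16e-05). These 4, the members of smallest adjusted p, showed no overlap between groups, as was so for 44.4% of all genes. All 4 kept their call with each library left out, and their choice by adjusted p favours both. The tight junction genes Ocln (-1.62), Tjp3 (-1.84), Marveld2 (-1.49) and Tjp1 (-0.62), the desmosomal cadherin Dsg2 (-3.08) and its partner Jup (-1.07) fell as well. Krt8 was at 1710, 1878 and 1350 and 996, 1039 and 1122 CPM (-0.64, SE 0.12, adjusted p = 0.00481), so the transcript stayed abundant. Krt19 (-0.26) and Pkp2 (-0.12) did not pass the test. The rise was that of Grhl2, a factor known to maintain epithelial identity, which stayed low (0.106, 0.0928 and 0.239 CPM in WT and 0.705, 0.691 and 0.703 CPM in Cdk19 KO RasG12V).

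Of 10 EMT and mesenchymal genes tested, 5 rose and 1 fell, a count that depended on single libraries: rises numbered 3 without WT replicate 1 or Cdk19 KO replicate 3, 2 without WT replicate 2, Cdk19 KO replicate 1 or Cdk19 KO replicate 2, and 6 without WT replicate 3, where 2 fell. Zeb2, a repressor of E-cadherin, was at 9.69, 10.6 and 9.33 CPM in WT and 23.3, 25.2 and 20.01 CPM in Cdk19 KO RasG12V (1.21, SE 0.12, adjusted p = 0.000128) and Pdgfra, a growth factor receptor, at 0.320, 0.495 and 0.686 and 1.34, 1.35 and 1.30 CPM (1.39, SE 0.30, adjusted p = 0.00827), with no overlap in either. Zeb1, at 45.6, 39.2 and 39.2 and 52.1, 53.6 and 49.6 CPM (0.32, SE 0.09, adjusted p = 0.0241), lost the call without WT replicate 2, Cdk19 KO replicate 1 or Cdk19 KO replicate 2. Pdgfra is also on the list of stellate cell and fibroblast markers, and the part of such cells in its rise was not tested. Vim and Loxl2 passed only with all 6 libraries or without WT replicate 3 (log2 fold changes 0.28 and 0.31). The neural cell adhesion gene Ncam1 fell (30.8, 28.9 and 30.6 and 13.6, 13.3 and 12.7 CPM, -1.19, SE 0.09, adjusted p = 2.82e-05). Cdh2, N-cadherin (-0.31), and Snai2 (0.45) did not pass the test, and Snai1, Twist1, Acta2 and Tagln were below the filter on low counts.

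Most of the hepatocyte genes that could be tested were lower in Cdk19 KO RasG12V. Of 32 genes listed, 11 passed the filter on low counts, which genes high in 1 group only can also pass, and of these 9 fell and 1 rose, beside 15.0% of all genes falling. Alb was at 4.12, 3.31 and 1.73 CPM in WT and had 0 counts in all 3 Cdk19 KO RasG12V libraries, at least 86.8-fold lower against the floor of 3 counts over the group. The median log2 fold change of the list, -5.01, is the same with Alb at that bound. Apoa1, an apolipoprotein of high-density lipoprotein, was at 14.8, 15.9 and 8.65 and 0.670, 0.242 and 0.268 CPM (-5.06, SE 0.38, adjusted p = 3.06e-05; -5.66 without Cdk19 KO replicate 1). Apob, the structural apolipoprotein of low-density lipoprotein and the most abundant of the list, was at 967, 1133 and 1058 and 450.0, 448 and 397 CPM (-1.29, SE 0.09, adjusted p = 2.31e-05). Fgb, a fibrinogen chain (-2.77), Ambp (-5.01; -5.94 without Cdk19 KO replicate 1) and the retinol carrier Rbp4 (-0.92) fell too, in addition to Lbp and Ttr above. The fetal albumin gene Afp rose (0.86), and Ass1, of the urea cycle (1.14), did not pass the test. WT replicate 3 had a median of -0.82 on the log2 scale against the mean of the other WT libraries in this list, and without it 9 fell and 2 rose.

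Of 21 liver lineage transcription factors, 12 fell and 2 rose (14 and 3 without WT replicate 3), with a median log2 fold change of -0.44. Hhex, a homeobox factor of early liver, was at 55.8, 51.8 and 38.8 CPM in WT and 15.0, 13.9 and 14.6 CPM in Cdk19 KO RasG12V (-1.75, SE 0.14, adjusted p = 3.96e-05). Foxa3, of the liver pioneer factor family, was at 2.56, 2.38 and 1.73 and 0.141, 0.346 and 0.368 CPM (-2.93, SE 0.35, adjusted p = 0.000364), while its relative Foxa1 was at 9.20, 9.40 and 11.1 and 20.6, 21.8 and 23.5 CPM (1.15, SE 0.11, adjusted p = 0.000138). Foxa1 was thus higher, and Foxa3 lower, in every Cdk19 KO RasG12V library. Hnf4a (-0.44) and Onecut2 (-0.57) fell and Sox9, a progenitor and bile duct factor, rose (0.70). Foxa2 (-0.27), Cebpa (-0.01) and Prox1 (-0.12) did not pass the test. Of 17 bile duct and progenitor genes, which share members such as Krt7, Sox9 and Onecut1 with these lists, 12 fell and 2 rose (13 and 2 without WT replicate 3). Bicc1, an RNA-binding protein of bile duct and kidney tubule, was at 821, 768 and 871 and 71.4, 62.5 and 67.4 CPM (-3.61, SE 0.09, adjusted p = 3.57e-07), and the annexin gene Anxa13 at 519, 530.4 and 459 and 155, 151 and 174 CPM (-1.65, SE 0.09, adjusted p = 7.19e-06). Both fell with the groups far apart, and the chloride channel Cftr (-2.28) and the bile acid transporter Slc10a2 (-2.66) fell too.

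Several genes typical of stomach and intestine were present in WT cells and lower in Cdk19 KO RasG12V. Of 29 listed, 17 passed the filter and 12 of these fell, with a median log2 fold change of -3.62. Genes high in WT alone could pass that filter, so the choice of tested members bears on both the count and the median. Of those tested, 19 of 21 fell without WT replicate 3, 11 of 17 without WT replicate 1, 9 of 17 without WT replicate 2, 8 of 21 without Cdk19 KO replicate 1 or 2 and 13 of 21 without Cdk19 KO replicate 3. Lgals4, an intestinal galectin, was at 286, 272 and 218 CPM in WT and 20.9, 19.9 and 22.2 CPM in Cdk19 KO RasG12V (-3.62, SE 0.12, adjusted p = 1.17e-06). Vsig1, a gastric junction protein, was at 255, 237 and 292 and 85.1, 80.5 and 99.1 CPM (-1.57, SE 0.11, adjusted p = 2.04e-05), and Ctse, a gastric aspartic protease, at 21.6, 16.6 and 9.57 and 4.69, 4.29 and 5.55 CPM (-1.71, SE 0.27, adjusted p = 0.00184). The intestinal P450 gene Cyp2c65 was at 110.2, 96.9 and 11.3 and 0.494, 0.795 and 0.435 CPM (-6.98, SE 1.14, adjusted p = 0.00687), with WT replicate 3 again nearest to the knockout. Vil1, the microvillus protein villin (-3.55), and Gpa33 (-3.65) fell. The intestinal homeobox factor Cdx2 (-0.30) and Cdh17 (-0.20) did not pass the test. WT replicate 3 had a median of -2.41 on the log2 scale against the mean of the other WT libraries in this list, and its part in the result was not tested beyond leaving it out.

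Of 25 genes of xenobiotic metabolism, 13 fell and 3 rose (17 and 5 of 27 without WT replicate 3). Gstm1, a glutathione transferase, was at 95.4, 83.0 and 73.6 CPM in WT and 18.8, 14.6 and 18.8 CPM in Cdk19 KO RasG12V (-2.27, SE 0.13, adjusted p = 1.01e-05), Gsto1 at 1138, 1295 and 1077 and 355, 421 and 498 CPM (-1.46, SE 0.13, adjusted p = 8.62e-05), and Cyp2s1, an extrahepatic P450, at 109, 91.5 and 84.2 and 10.1, 7.19 and 12.2 CPM (-3.27, SE 0.18, adjusted p = 8.66e-06). These genes were lower in every Cdk19 KO RasG12V library. Gclc, the catalytic subunit of glutathione synthesis (-1.42), and Cyp1b1 (-2.79) fell, while Hmox1, heme oxygenase, rose (54.4, 55.4 and 46.7 and 104, 98.5 and 96.9 CPM, 0.94, SE 0.08, adjusted p = 8.01e-05), as did Txnrd1 (0.38). Reads shared by similar copies of the Cyp2c, Gstm, Gsta and Ugt genes were dropped in the counting, which leaves the values of these families uncertain.

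Glycolysis and hypoxia genes were mostly higher: of 28 tested, 17 rose and 2 fell, with a median log2 fold change of 0.52 (20 and 4 without WT replicate 3). Pfkl, the liver phosphofructokinase, was at 203, 195 and 209.5 CPM in WT and 349.9, 317 and 349.9 CPM in Cdk19 KO RasG12V (0.74, SE 0.07, adjusted p = 0.000121). Pdk1, a kinase that keeps pyruvate from the citric acid cycle, was at 26.4, 24.3 and 28.6 and 59.0, 47.4 and 55.8 CPM (1.03, SE 0.11, adjusted p = 0.000168). Each Cdk19 KO RasG12V library exceeded each WT library in both. Pfkp (1.48), lactate dehydrogenase Ldha (0.90), hexokinase Hk2 (0.77), Pgam1 (0.70), Aldoa (0.55) and the glucose transporter Slc2a1 (0.44) rose, as did Bnip3, of mitophagy (1.58). The list did not move as a whole. Ndrg1, a stress gene induced by hypoxia, was at 289, 257 and 156 and 33.0, 21.2 and 28.0 CPM (-3.09, SE 0.26, adjusted p = 0.000136), Pgk1 fell (-0.62), and the hypoxia genes Vegfa (-0.33) and Car9 (-0.70) did not pass the test.

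Of 28 genes of cholesterol and fatty acid synthesis, 6 rose and 2 fell, and the number that rose ranged from 3 (without WT replicate 1, WT replicate 2, Cdk19 KO replicate 1 or Cdk19 KO replicate 2) to 14 (without WT replicate 3, where 3 fell). Elovl6, a fatty acid elongase, was at 85.6, 81.9 and 96.8 CPM in WT and 156, 141 and 140.4 CPM in Cdk19 KO RasG12V (0.73, SE 0.08, adjusted p = 0.000298), and Acly, ATP citrate lyase, at 445, 448 and 465 and 588, 551 and 573 CPM (0.34, SE 0.07, adjusted p = 0.00635). Malic enzyme Me1 went the other way, at 412, 418 and 383 and 219, 215 and 221 CPM (-0.89, SE 0.07, adjusted p = 3.53e-05). The cholesterol pathway gene Sqle (-0.08) did not pass the test with all libraries.

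Falls numbered 8 and rises 0 in the list of 32 genes for S phase and E2F targets, beside 15.0% and 13.3% of all genes, with a median log2 fold change of -0.13. The falls numbered 3 without WT replicate 1, WT replicate 2, Cdk19 KO replicate 1 or Cdk19 KO replicate 3, 4 without Cdk19 KO replicate 2, and 17 without WT replicate 3, where 21.7% of all genes fell and 1 of the list rose. Mcm6, of the replicative helicase, was at 286, 310.2 and 253 CPM in WT and 219, 210.1 and 206 CPM in Cdk19 KO RasG12V (-0.42, SE 0.09, adjusted p = 0.00655), and Cdt1, a licensing factor, at 47.1, 45.9 and 48.9 and 29.6, 33.5 and 37.5 CPM (-0.50, SE 0.10, adjusted p = 0.00607). Of 28 G2 and mitosis genes, 3 rose: Cenpe, a kinetochore motor, at 161, 178 and 160.0 and 219.6, 234 and 201 CPM (0.39, SE 0.08, adjusted p = 0.0069), and the checkpoint kinase gene Bub1 and the centromeric histone gene Cenpa, both of which lost the call without WT replicate 1 or Cdk19 KO replicate 2. Without WT replicate 3, 6 rose and 6 fell, and 1 rose without WT replicate 1 or Cdk19 KO replicate 2. The 3 rises with all libraries were no larger a share than the 13.3% of all genes. The 6 and 6 were near the 22.0% and 21.7% of all genes without WT replicate 3. Mki67 (-0.03), Cdk1 (-0.12) and Ccnb1 (0.03) did not pass the test. Of 26 CDK inhibitors and p53 targets, 6 rose and 5 fell, beside 13.3% and 15.0% of all genes (10 and 6 without WT replicate 3, beside 22.0% and 21.7%). With any 1 of the other 5 libraries left out, 2 rose and 2 to 5 fell. The CDK inhibitor gene Cdkn1c was at 0.0710, 0.186 and 0.239 and 1.16, 1.07 and 1.14 CPM (2.70, SE 0.37, adjusted p = 0.000782), Cdkn2c at 13.0, 14.8 and 12.4 and 8.18, 8.95 and 8.90 CPM (-0.63, SE 0.12, adjusted p = 0.00431) and the death-promoting gene Pmaip1 at 144, 150.3 and 134 and 207, 205 and 198 CPM (0.51, SE 0.07, adjusted p = 0.000758). Thus Cdkn1c and Pmaip1 were higher, and Cdkn2c lower, in each knockout library. Cdkn1a, the best known p53 target, had a log2 fold change of 0.08 and did not pass the test. Of 24 MYC and ribosome biogenesis genes, 7 rose and 1 fell. The rises numbered 3 without Cdk19 KO replicate 1 or 2, 4 without WT replicate 1 and 10 without WT replicate 3, where 2 fell. Cad, of pyrimidine synthesis, was at 253, 254 and 222 and 376, 378 and 355 CPM (0.60, SE 0.08, adjusted p = 0.000571), Mycn fell (-3.58; -4.17 without Cdk19 KO replicate 3), and Myc (0.34) did not pass the test.

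Targets of YAP and TEAD and genes of TGF-beta signalling were more often lower. Of 21 YAP and TEAD genes, 11 fell and 2 rose (12 and 5 without WT replicate 3), with a median log2 fold change of -0.72. The LIM protein gene Ajuba was at 152, 144 and 128 CPM in WT and 78.2, 82.9 and 81.3 CPM in Cdk19 KO RasG12V (-0.80, SE 0.08, adjusted p = 0.000148), and the kinase gene Nuak2 at 27.7, 25.8 and 28.6 and 10.4, 11.1 and 9.80 CPM (-1.39, SE 0.10, adjusted p = 2.31e-05). The classical targets Ccn1 (-0.72), Ccn2 (-0.82) and Amotl2 (-1.08) fell, and Yap1 itself (0.15) did not pass the test. Tead1 (0.33), a DNA-binding partner of YAP, and the YAP paralogue Wwtr1 (0.34) rose, the first with overlapping groups, and 1 of the 21 rose without WT replicate 1, WT replicate 2, Cdk19 KO replicate 1 or Cdk19 KO replicate 2. Of 23 TGF-beta and SMAD genes, 13 fell and 2 rose (17 and 3 of 24 without WT replicate 3). Inhbb, an activin subunit, was at 12.7, 13.5 and 12.8 and 0.635, 0.933 and 1.00 CPM (-3.91, SE 0.18, adjusted p = 3.31e-06), Pmepa1, a feedback inhibitor of TGF-beta, at 133, 127 and 162 and 59.8, 60.6 and 57.9 CPM (-1.24, SE 0.10, adjusted p = 3.9e-05), and Id2, a SMAD target, at 934, 992 and 929 and 581, 493 and 546 CPM (-0.82, SE 0.08, adjusted p = 0.000165). The groups did not overlap in any of these, chosen by adjusted p, as was so for 44.4% of all genes. The ligand genes Tgfb2 (-2.34), Tgfb3 (-3.31) and Bmp4 (-1.54) and the activating integrin Itgb6 (13.4, 13.2 and 5.70 and 0.529, 0.691 and 0.435 CPM, -4.27, SE 0.39, adjusted p = 8.52e-05) fell, the activin antagonist Fst rose (1.28), and Tgfb1 (0.82) did not pass the test.

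Immune genes were mixed. Of 17 interferon response genes, 5 fell and 1 rose (5 and 4 without WT replicate 3). The antiviral GTPase gene Mx1 was at 21.2, 17.4 and 3.07 CPM in WT and 0.0705, 0.346 and 0.335 CPM in Cdk19 KO RasG12V (-5.75, SE 0.94, adjusted p = 0.00489), with WT replicate 3 the lowest of WT, while Ifit2 was at 18.8, 19.5 and 26.5 and 38.2, 36.8 and 33.7 CPM (0.75, SE 0.14, adjusted p = 0.00382). Of 11 antigen presentation genes, 3 rose and 3 fell (6 and 3 without WT replicate 3). Nlrc5, the activator of class I genes, was at 0.248, 0.0619 and 0.358 and 6.63, 6.74 and 6.93 CPM (4.90, SE 0.36, adjusted p = 2.73e-05) and B2m, the class I light chain, at 205, 211 and 253 and 353, 328 and 340.3 CPM (0.61, SE 0.09, adjusted p = 0.00136). Tapbp, which loads peptides on class I molecules, was at 18.3, 18.8 and 22.6 and 9.63, 9.16 and 12.1 CPM (-0.95, SE 0.14, adjusted p = 0.0012). Nlrc5 and B2m were thus higher and Tapbp lower in every knockout library. Of 18 NF-kB genes, cytokines and chemokines, 5 rose and 6 fell (5 and 7 without WT replicate 3, 3 falls without Cdk19 KO replicate 1 and 2 without Cdk19 KO replicate 2). The chemokine gene Ccl20 was at 53.3, 59.8 and 51.2 and 4.44, 5.39 and 4.18 CPM (-3.55, SE 0.13, adjusted p = 1.61e-06), and Lif, a cytokine of the interleukin 6 family, at 34.8, 28.1 and 35.8 and 64.6, 59.6 and 78.7 CPM (1.04, SE 0.13, adjusted p = 0.000497). Ccl20 was low and Lif high in all Cdk19 KO RasG12V libraries. Tslp, an epithelial cytokine, had 0 counts in all WT libraries and 0.494, 0.415 and 0.435 CPM in Cdk19 KO RasG12V, at least 14.0-fold higher against the floor over the group. Csf2 rose (2.70; 3.46 without WT replicate 3). Of the 13 macrophage and leukocyte markers, Adgre1, Tyrobp, Cd3e and Clec4f had 0 counts in the 6 libraries. Of the 4 tested, 1 rose: Csf1r, with 5, 9 and 6 counts in WT and 12, 16 and 19 in Cdk19 KO RasG12V. None of the 4 rose without WT replicate 1, Cdk19 KO replicate 2 or Cdk19 KO replicate 3. The whole list summed to 36.2 to 46.0 CPM in WT and 34.5 to 38.7 CPM in Cdk19 KO RasG12V.

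In Mediator, 4 of 7 kinase module genes rose and 2 fell, also without WT replicate 3. The falls were Cdk19 and Med12l, the paralogue of Med12, at 2.63, 2.66 and 2.65 CPM in WT and 0.741, 1.07 and 0.736 CPM in Cdk19 KO RasG12V (-1.63, SE 0.23, adjusted p = 0.000908), and both held with each library left out. The rises of Cdk8, Med12 (0.26), Med13l (0.36) and Ccnc, cyclin C (0.30), were small, and the number that rose was 2 without Cdk19 KO replicate 3 and 0 without WT replicate 1, WT replicate 2, Cdk19 KO replicate 1 or Cdk19 KO replicate 2. Of 26 other Mediator subunits, 3 rose and 1 fell (4 and 3 without WT replicate 3, 1 rise without WT replicate 1, Cdk19 KO replicate 1 or Cdk19 KO replicate 2), shares below those of all genes, and log2 fold changes lay between -0.42 (Med11) and 0.43 (Med10).

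**Figure D3:**
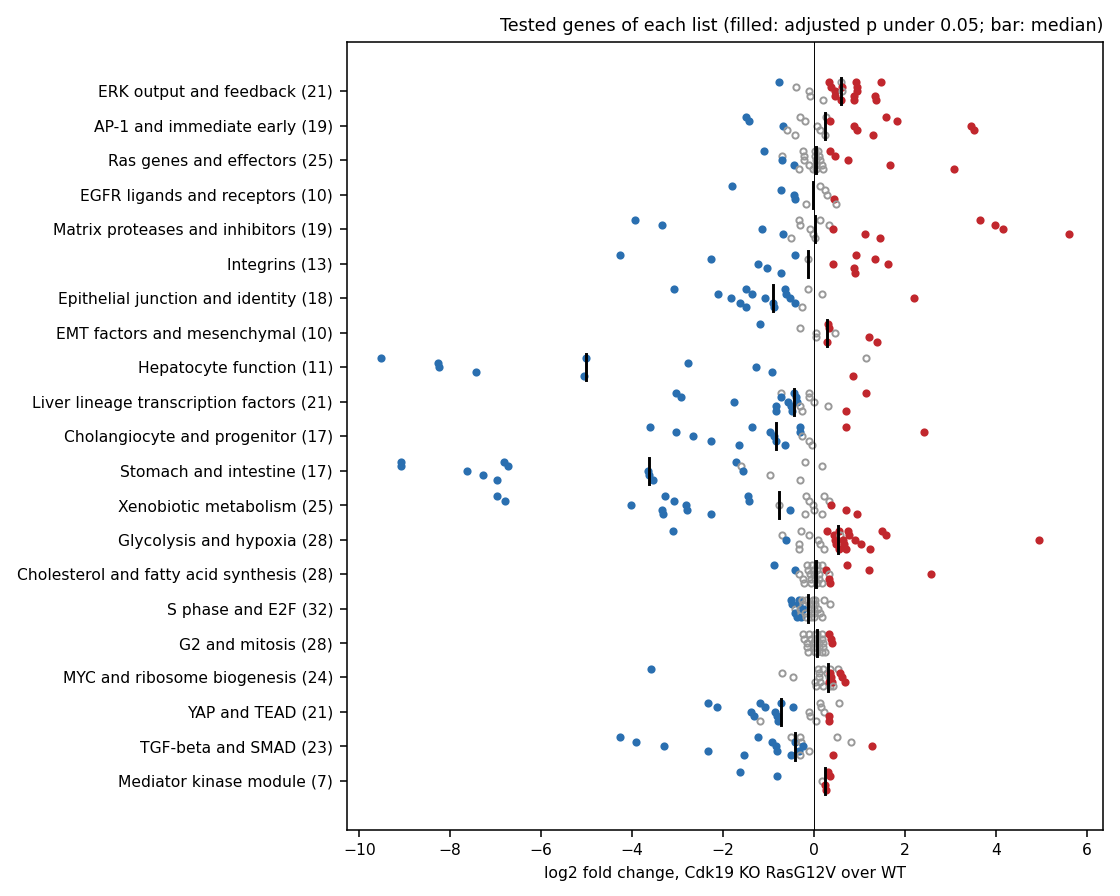
Log2 fold change of Cdk19 KO RasG12V over WT (horizontal axis) for every tested gene of 21 lists, with the number tested in parentheses, filled red for genes that rose, filled blue for genes that fell, open grey for genes that did not pass the test and a black bar at the median of each list. Medians of the lists shown, a selection, range from -5.01 (hepatocyte function) to 0.60 (ERK output and feedback), while those of S phase and E2F (-0.13) and of G2 and mitosis lie near 0.

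The same changes were then set beside those of the other transformed groups, each of which shares the WT libraries with this comparison, so that fold changes over WT are not independent between them. In a fit of all 12 libraries, 3608 of 14283 genes (25.3%) were called in Cdk19 KO RasG12V over WT, 3340 (23.4%) in WT RasG12V and 3490 (24.4%) in Cdk8 KO RasG12V. Of the 21 ERK output genes, 14 rose and 1 fell in Cdk19 KO RasG12V in that fit, 15 and 1 in WT RasG12V, and 11 and 1 in Cdk8 KO RasG12V. Of the 18 epithelial junction genes, 14 fell in Cdk19 KO RasG12V, 13 in WT RasG12V and 14 in Cdk8 KO RasG12V. Mmp13, Lbp and Bicc1 moved the same way in all 3 groups, with log2 fold changes over WT in that fit of 3.65, -7.44 and -3.61 in Cdk19 KO RasG12V, 4.89, -6.64 and -3.56 in WT RasG12V and 4.54, -6.92 and -3.57 in Cdk8 KO RasG12V. Among the 3894 genes called against WT, the median absolute log2 difference was 0.659 against WT, 0.151 against WT RasG12V and 0.132 against Cdk8 KO RasG12V. These medians describe the same genes, chosen by their difference from WT.

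Cdk19 KO RasG12V was also tested directly against the other transformed groups. Against WT RasG12V, 2 of 14283 genes passed (0.0140%; 1 in each direction, 0.00700% each), the G-protein signalling regulator Rgs5 and Gm38020, named because the count is small, with log2 differences of -2.65 and 3.02. Rgs5 is also on the list of stellate cell and fibroblast markers. That list summed to 4.5 to 5.3 CPM in WT RasG12V and 1.8 to 2.5 CPM in Cdk19 KO RasG12V, and the part of such cells was not tested. At an unadjusted p under 0.05 there were 1089, and DESeq2 called 25 higher and 41 lower. WT RasG12V replicate 3 stood apart from its group, with 10.3% and 10.2% of genes at least 2-fold from replicates 1 and 2, which differed in 2.21%. Without it and WT replicate 3, an alternative chosen after seeing the data, 291 of 14493 genes passed (2.01%; 161 higher, 1.11%, and 130 lower, 0.897%), and 182 of them were among the genes called against WT. Against Cdk8 KO RasG12V, 15 genes passed (0.105%; 4 higher, 0.0280%, and 11 lower, 0.0770%), 1027 had an unadjusted p under 0.05, and 771 passed without those 2 libraries (5.32%; 250 higher, 1.72%, and 521 lower, 3.59%), 441 of them called against WT. With the 2 groups fitted alone, 141 were higher and 355 lower.

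Genes named from the direct differences were chosen by adjusted p in those tests, which favours libraries without overlap. Their order is a description and no further support, and the share of all genes with such an order is not given. Nt5e, which encodes the ectonucleotidase CD73 and is on the YAP and TEAD list, was lowest in Cdk19 KO RasG12V. It was at 22.5, 20.01 and 20.6 CPM in WT, 7.23, 9.88 and 8.16 CPM in Cdk19 KO RasG12V, 13.4, 14.1 and 19.5 CPM in WT RasG12V and 20.3, 26.0 and 23.3 CPM in Cdk8 KO RasG12V. Cdk19 KO RasG12V was below every other library, with a log2 difference of -1.46 (SE 0.16, adjusted p = 0.00622) from Cdk8 KO RasG12V and -0.90 (adjusted p = 0.135; 0.00732 without the 2 replicates 3) from WT RasG12V. Gimd1, named for a GTPase-like domain, was at 203, 209 and 182 CPM in WT, 127, 133 and 134 CPM in Cdk19 KO RasG12V, 183, 173 and 215 CPM in WT RasG12V and 207, 228 and 210.0 CPM in Cdk8 KO RasG12V. It too was lowest in all 3 Cdk19 KO RasG12V libraries (-0.71 from Cdk8 KO RasG12V, adjusted p = 0.00998; -0.53 from WT RasG12V, adjusted p = 0.103). Adgra2, an adhesion receptor that acts in Wnt7 signalling, was at 23.4, 22.7 and 35.6 CPM in WT, 70.1, 75.9 and 76.4 CPM in Cdk19 KO RasG12V, 52.96, 54.6 and 54.0 CPM in WT RasG12V and 43.5, 38.7 and 40.5 CPM in Cdk8 KO RasG12V, highest in the 3 Cdk19 KO RasG12V libraries (0.86 from Cdk8 KO RasG12V, adjusted p = 0.0446). Sprr2h, a cornified envelope protein, Palld, an actin-bundling protein, and Scel, sciellin, were lower than in Cdk8 KO RasG12V by 1.23, 0.52 and 0.71 on the log2 scale (adjusted p = 0.0291, 0.0215 and 0.00622). With any 1 library of either group left out, 0 genes were higher and 0 to 5 lower than in Cdk8 KO RasG12V by the same test. The call of Nt5e was lost without Cdk8 KO RasG12V replicate 3, Cdk19 KO replicate 1 or Cdk19 KO replicate 3 (adjusted p 0.0629 to 0.0729), and those of Gimd1, Adgra2 and Sprr2h without any 1 of the 6.

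Some genes that rose over WT were lower in Cdk19 KO RasG12V than in the other transformed groups without passing the test on all libraries. The synaptic vesicle gene Synpr was at 0, 0.0309 and 0.0298 CPM in WT, 2.43, 2.45 and 2.68 CPM in Cdk19 KO RasG12V, 4.99, 5.15 and 6.63 CPM in WT RasG12V and 4.74, 5.15 and 4.84 CPM in Cdk8 KO RasG12V (log2 difference from WT RasG12V -1.15, adjusted p = 0.103; 0.00247 without the 2 replicates 3). Its Cdk19 KO RasG12V libraries lay between WT and the other transformed libraries, with no overlap, an order that its choice by adjusted p favours. Scg2, a granin of secretory vesicles, showed the same order, at 2.08, 1.80 and 2.98 CPM in Cdk19 KO RasG12V, 5.25, 5.68 and 10.9 CPM in WT RasG12V and 3.57, 5.37 and 5.93 CPM in Cdk8 KO RasG12V (difference from WT RasG12V -1.67, adjusted p = 0.135). Mmp10 was at 94.8, 85.2 and 163 CPM in WT RasG12V and 103, 138 and 128 CPM in Cdk8 KO RasG12V, above the 34.3, 39.8 and 67.1 CPM in Cdk19 KO RasG12V (differences -1.28 and -1.38, adjusted p = 0.223 and 0.0967). Stc1 was at 46.2, 48.6 and 89.1 CPM in WT RasG12V and 44.6, 47.3 and 53.9 CPM in Cdk8 KO RasG12V (differences -1.32 and -0.98, adjusted p = 0.223 and 0.33). For Stc1, too, every Cdk19 KO RasG12V library was below every other transformed library. Other rises went the other way against WT RasG12V, also without passing the test. Zfp352 had 222, 133 and 112 counts in Cdk19 KO RasG12V and 70, 71 and 39 in WT RasG12V, not scaled for depth. Acan had 195, 144 and 211 counts in Cdk19 KO RasG12V and 119, 102 and 153 in WT RasG12V. Without the 2 replicates 3, 161 genes were higher and 130 lower than in WT RasG12V. Cyp2c68, a P450 with similar copies, fell against WT (-1.40). It was at 8.31, 6.19 and 5.28 CPM in WT, 1.94, 2.04 and 3.48 CPM in Cdk19 KO RasG12V, 9.80, 7.40 and 18.8 CPM in WT RasG12V and 8.10, 8.84 and 9.16 CPM in Cdk8 KO RasG12V. All 3 Cdk19 KO RasG12V libraries were below the WT libraries, and all 3 libraries of Cdk8 KO RasG12V above 2 of them (difference from WT RasG12V -2.27, adjusted p = 0.0882; 0.000297 without the 2 replicates 3). Hras itself was at 509.7, 537 and 313 CPM in WT RasG12V, 456, 444 and 452 CPM in Cdk8 KO RasG12V and 439, 402 and 425 CPM in Cdk19 KO RasG12V. Its log2 difference from WT RasG12V was -0.30 without the 2 replicates 3 (adjusted p = 0.0133) and -0.10 with them (adjusted p = 0.915), and its part in the other differences was not tested. Cdk19 was at 64.7, 67.2 and 93.6 CPM in WT RasG12V, so the knockout libraries were lower than these as well (difference -0.60, adjusted p = 0.243; 0.0136 without the 2 replicates 3).

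**Figure D4:**
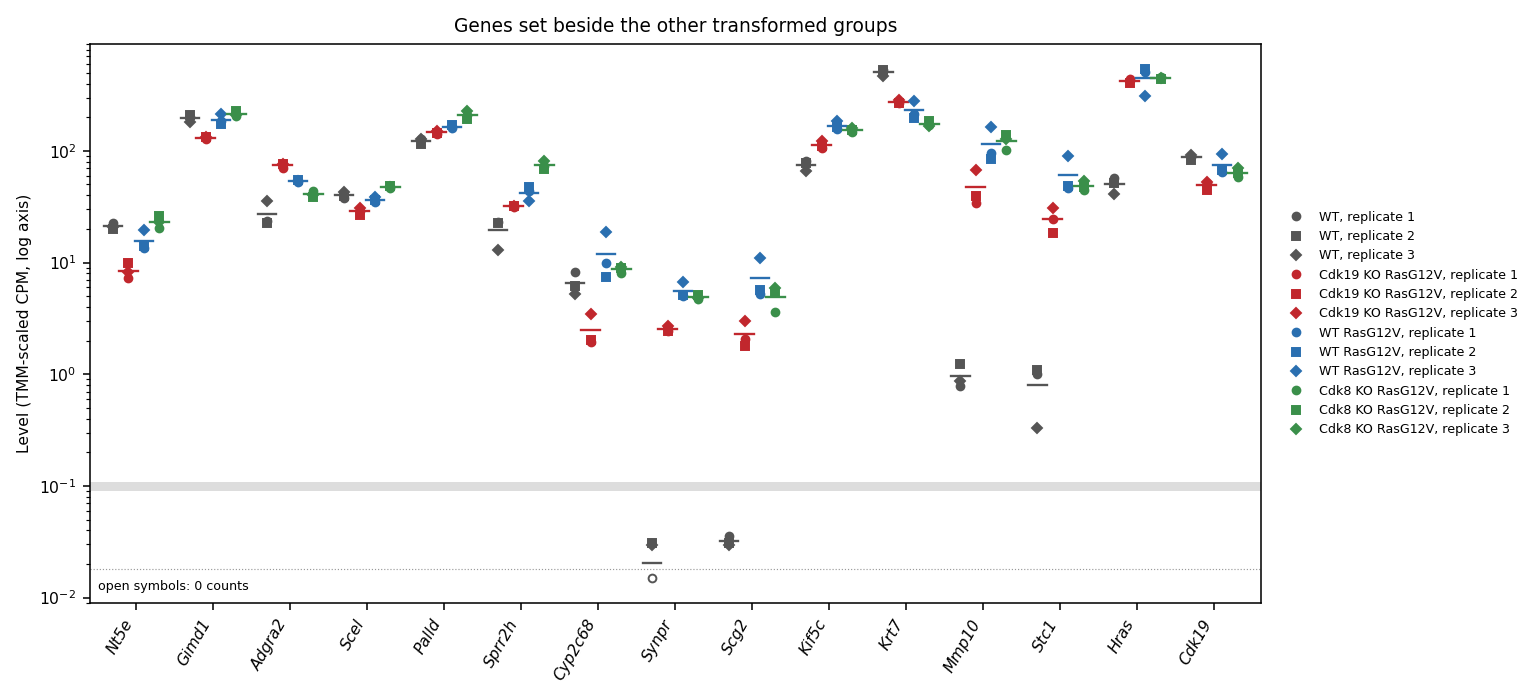
Level of 15 genes (TMM-scaled CPM, log axis) in each library of WT (grey), Cdk19 KO RasG12V (red), WT RasG12V (blue) and Cdk8 KO RasG12V (green), with symbols by replicate, bars at group means, the floor of 3 counts as a grey band and open symbols for 0 counts. Nt5e and Gimd1 are lowest and Adgra2 is highest in the 3 Cdk19 KO RasG12V libraries, and Synpr, Scg2, Mmp10 and Stc1 in those libraries lie between WT and the other transformed groups.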

How the data were processed

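RNA of 6 of the 12 BMEL libraries was compared, and the other 6 entered the shared fits. Per the submitters' processing notes, reads were checked with FastQC and aligned with STAR 2.6.0a to GRCm38.p6, and per the labels the RNA was total RNA depleted of ribosomal RNA. The annotation release and the command settings are not given in the sources used here. The deposited values are whole-number gene counts, 1 table per library, and the reverse-strand column, 26.9 to 28.6 times the forward column, was used. Gene rows held 65.2% to 66.7% of reads in the 6 libraries. Rows that name no gene were left out: 2.31% to 3.34% unmapped, 23.0% to 26.2% mapping to several places, 4.70% to 5.85% outside genes and 0.963% to 1.04% ambiguous. Of 54146 gene identifiers, 54079 matched GENCODE M21 (GRCm38), which gave symbols and coordinates.

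Tests were run in R 4.3.3 with the quasi-likelihood method of edgeR 4.0.16 (glmQLFit, robust, and glmQLFTest) after filterByExpr and TMM, with Benjamini-Hochberg adjustment and a threshold of 0.05. The 6 libraries were fitted alone for the comparison with WT, and all 12 together for those with the other transformed groups. Levels are CPM scaled with TMM factors of the 12 libraries. Alternatives were RLE and upper quartile scaling, no low-count filter or 1 CPM in 3 libraries, limma-voom (limma 3.58.1), DESeq2 1.42.0, unstranded counts, a replicate block, other sets of libraries and each library left out. Tested on simulated counts of 13536 genes for this comparison, the method called 186 of 196 genes changed 2-fold (94.9%) and 7 unchanged genes. The simulation used the same dispersion for every gene, no library set apart as WT replicate 3 is, and few changed genes. In the data, 28.3% of genes were called, so these rates check that the code runs and need not hold for these libraries. Because the reads carry no molecular identifiers, 95% intervals and floors of 3 counts describe counting error alone. Depth, 28202944 to 32594810 gene counts, sets that precision.

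Named genes are Cdk19, Cdk8 and Hras, the 12 largest rises and 12 largest falls (protein-coding, separated groups, a mean of 5 CPM or more in the higher one, no model-number symbol), up to 4 members of each list by adjusted p, and the 5 leading genes in each direction of each direct difference. Other members are given as values only, and some genes are not reported here. The comparison and the 38 gene lists were chosen with earlier results of these data known. Of 856 list entries, 650 were tested. Promoters of 124 of 168 named genes were found in the RefSeq table. Figures were drawn with matplotlib 3.10.9.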

Additional observations from a re-analysis of the deposited data

Results flagged for a closer look

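In 11 genes that changed against WT, the effect in Cdk19 KO RasG12V differed from that in Cdk8 KO RasG12V by a direct test of the difference (edgeR quasi-likelihood test on 12 libraries, adjusted p under 0.05 over 14283 genes). For the 6 that met the rule for named genes, the log2 differences were -1.46 for Nt5e, -0.71 for Gimd1, 0.86 for Adgra2, -0.71 for Scel, -0.52 for Palld and -1.23 for Sprr2h. Nt5e and Gimd1 fell against WT in Cdk19 KO RasG12V (log2 fold change -1.32 and -0.59), while in Cdk8 KO RasG12V their log2 fold changes over WT were 0.14 and 0.12 and did not pass the test. Sprr2h and Palld rose against WT in both groups, by 0.71 and 0.24 in Cdk19 KO RasG12V in the fit of 12 libraries and by 1.93 and 0.76 in Cdk8 KO RasG12V. Against WT, Palld lost the call with any library but WT replicate 3 left out, and Sprr2h without any 1 of the Cdk19 KO libraries (adjusted p 0.0635 to 0.114 and 0.0735 to 0.0831). Scel fell in Cdk19 KO RasG12V (-0.46) and rose in Cdk8 KO RasG12V (0.25), and Adgra2 rose in both (1.44 and 0.58). The other 5, named after their values were seen, were Crb2 (-1.85), Cdh6 (-0.995), Pls3 (-0.41), Gm5939 (1.67) and Gm38020 (3.71). The differences of the first 6 all kept their direction, and each lost its call without Cdk8 KO RasG12V replicate 3, Cdk19 KO replicate 1 or Cdk19 KO replicate 3.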

How the results depend on the processing

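The direction of each of the 168 named genes against WT held under all 2681 alternative values computed, and 2573 of them stayed past the threshold, with 134 genes never losing it. All 168 passed the threshold in the main fit, all but Cdk19, Cdk8 and Hras by the rule of choice. The alternatives reuse the same libraries, so these figures describe chosen genes and are no further support. The counts of rises ranged from 1147 to 3080 and of falls from 1335 to 3040 when 1 library was left out. Other settings moved them less: DESeq2 gave 2015 and 2133, no filter on low counts 2490 and 2348, all 12 libraries 1772 and 1836, and 9 libraries without WT RasG12V 2203 and 2362. With a replicate block, 2081 rose and 2206 fell. The correlations of same-numbered libraries were 0.0381, 0.137 and 0.115, so the numbers were not taken to pair the samples, although each library correlated best with its own number, a hint from the data and not the design. Against WT RasG12V (1 higher, 1 lower), the counts were 34 and 50 without a filter, 25 and 41 by DESeq2, 0 and 2 with a replicate block and 0 and 1 with the 2 groups alone, and 0 to 8 higher and 0 to 2 lower with 1 library left out. Against Cdk8 KO RasG12V (4 higher, 11 lower), they were 25 and 83 without a filter, 28 and 85 by DESeq2, 141 and 355 with the 2 groups alone, and 0 higher and 0 to 5 lower with 1 library left out. In alternatives added after seeing the data, leaving WT replicate 3 out of the shared fit gave 6 and 15 against WT RasG12V and 18 and 55 against Cdk8 KO RasG12V, and leaving out WT RasG12V replicate 3 as well gave 161 and 130, and 250 and 521. The cause of these changes was not tested. Differences near 0 from WT RasG12V changed sign: with 1 library left out, Cdk8 ranged from -0.033 (without WT RasG12V replicate 3) to 0.045 and was at -0.011 without Cdk19 KO replicate 2, and Hras ranged from -0.31 to 0.038 (without WT RasG12V replicate 2). Without WT RasG12V and WT replicates 3, Cdk8 was at -0.027. Where a leave-out leaves 2 libraries in a group, fewer samples set the spread. Genes at or under 3 counts have folds limited by depth.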

Other observations

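Guidance molecules, which steer growing axons and migrating cells, moved in both directions: of 28 semaphorins, ephrins and related genes tested, 8 rose and 11 fell (9 and 13 without WT replicate 3, and 5 or 6 rises and 7 or 8 falls without any 1 Cdk19 KO library). Sema3a was at 65.6, 69.8 and 70.1 CPM in WT and 139, 139 and 142 CPM in Cdk19 KO RasG12V (log2 fold change 1.03, SE 0.06, adjusted p = 1.35e-05, edgeR quasi-likelihood test), and the netrin receptor gene Unc5b at 449.8, 425 and 427 and 282, 266 and 293 CPM (-0.63, SE 0.07, adjusted p = 0.000275). Sema3f (-1.99) and Sema3b (-1.07) fell. Of 14 Wnt genes, 4 rose and 4 fell, beside 13.3% and 15.0% of all genes (5 and 5 without WT replicate 3, beside 22.0% and 21.7%). Wnt5a, a ligand of beta-catenin-independent signalling, was at 4.37, 4.61 and 3.43 and 18.4, 18.5 and 21.3 CPM (2.23, SE 0.14, adjusted p = 1.56e-05), while Wnt7b was at 16.3, 15.9 and 16.3 and 2.86, 3.08 and 2.51 CPM (-2.52, SE 0.13, adjusted p = 4.48e-06) and Wnt4 at 4.58, 4.33 and 2.59 and 0.141, 0.0691 and 0.0669 CPM (-5.32, SE 0.40, adjusted p = 3.11e-05). Of 12 Notch genes, 4 fell and 3 rose (4 and 4 without WT replicate 3, 1 rise without Cdk19 KO replicate 1). The target Hey1 was at 8.41, 9.84 and 13.2 and 2.40, 2.07 and 1.51 CPM (-2.40, SE 0.23, adjusted p = 0.000118), but Nrarp, another Notch target, at 7.95, 8.35 and 10.7 and 23.7, 23.3 and 25.7 CPM (1.43, SE 0.13, adjusted p = 8.41e-05), and Hes1 (-0.07) did not pass the test.

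Of 13 genes of the IGF axis, 5 fell and 2 rose (5 and 3 without WT replicate 3), in cells grown with insulin and IGF2. Igfbp4, a binding protein that sequesters IGFs, was at 307, 302 and 355 CPM in WT and 804, 751 and 812 CPM in Cdk19 KO RasG12V (1.30, SE 0.09, adjusted p = 1.95e-05), and Igfbp3 rose (0.77). Igfbp7 was at 10.9, 9.80 and 11.9 and 1.41, 1.18 and 0.970 CPM (-3.19, SE 0.18, adjusted p = 8.66e-06), and the receptor substrates Irs1 (48.5, 44.0 and 36.6 and 16.6, 18.1 and 18.0 CPM, -1.29, SE 0.12, adjusted p = 8.17e-05) and Irs2 (-1.71) fell. Of 23 ATF4 and unfolded protein genes, 8 fell and 1 rose (10 and 3 without WT replicate 3, 6 and 3 without WT replicate 1), among them Herpud1, of protein degradation at the endoplasmic reticulum (63.8, 61.3 and 51.8 and 25.5, 24.1 and 29.4 CPM, -1.16, SE 0.11, adjusted p = 0.000122). The 8 mesothelial markers summed to 1500 to 1799 CPM in WT and 1215 to 1334 CPM in Cdk19 KO RasG12V, nearly all from Msln, which was at 1383, 1361 and 1652 and 1090, 1118 and 1186 CPM (-0.37, SE 0.10, adjusted p = 0.02) and lost the call without Cdk19 KO replicate 1 or 2. Upk1b was at 7.21, 8.29 and 18.1 and 2.19, 2.35 and 2.54 CPM (-2.25, SE 0.34, adjusted p = 0.0015), with WT replicate 3 the highest. Of the 5 mesothelial markers tested, 3 fell and 1 rose, also without WT replicate 3. The third fall was that of Upk3b. The rise was that of Lrrn4, with 2, 1 and 2 counts in WT and 31, 23 and 15 in Cdk19 KO RasG12V.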
